A study of Mus musculus with 6 samples.

Results

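The cytosolic sulfotransferases are soluble enzymes that join a sulfonate group to hormones, bile acids, neurotransmitters and drugs. The 10 genes described here are Sult1a1, Sult1b1, Sult1c2, Sult1d1, Sult1e1, Sult2a1, Sult2b1, Sult3a1, Sult4a1 and Sult5a1. They were found by their symbol in the platform annotation, and each had 1 probe set, so 10 probe sets of 65956 and 10 of 30702 named genes are members. The values come from the livers of 6 male mice aged 8 weeks, with total RNA of 1 mouse per Affymetrix array. The HFD-inulin group holds 3 offspring of inulin-treated mothers, and the HFD group 3 offspring of mothers on a high-fat diet. Both titles carry HFD, so a high-fat diet may be common to both groups. The labels used here name no strain, inulin dose, timing, offspring diet or number of litters. Mice of 1 group may share a mother, so p-values measure only the spread between these arrays, which may be technical. Values per array follow the order of arrays 1 to 3.

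Sulfonation takes its sulfonate group from PAPS, a carrier that PAPS synthases make from sulfate and ATP. In liver it makes small lipophilic molecules more water-soluble and inactivates many steroid and thyroid hormones, and sulfatases can undo it. SULT1 enzymes act mainly on phenols, including catecholamines, oestrogens and thyroid hormones, and SULT2 enzymes on the hydroxyl groups of steroids, sterols and bile acids. In mice the liver expression of several sulfotransferase genes differs between the sexes, with Sult2a1 and Sult3a1 predominantly female.

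The promoters of 5 members are shown because Sult1a1, Sult1b1, Sult1c2 and Sult1d1 were low in the same 2 arrays and Sult5a1 was the member whose groups did not overlap. The sequences are those of RefSeq (GRCm38.p6), 5′ to 3′ on the strand of the gene, from 250 bases before to 50 bases after a start site. For Sult1b1 the first of 2 listed start sites was taken. Capitals mark matches on either strand to 6 motifs, which are the nuclear receptor half-site AGGTCA, the HNF4-selective CAAAGTCCA, the forkhead motif TGTTTAC, the STAT5 motif TTCNNNGAA, the AHR-ARNT core GCGTG and the E-box CACGTG.
Sult1a1 (chr7:126676369-126676668, minus strand): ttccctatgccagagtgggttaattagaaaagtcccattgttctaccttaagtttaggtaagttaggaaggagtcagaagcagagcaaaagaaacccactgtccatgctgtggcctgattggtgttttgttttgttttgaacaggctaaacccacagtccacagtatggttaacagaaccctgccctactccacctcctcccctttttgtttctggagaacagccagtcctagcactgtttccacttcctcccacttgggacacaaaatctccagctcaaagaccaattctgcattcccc
Sult1b1 (chr5:87538146-87538445, minus strand): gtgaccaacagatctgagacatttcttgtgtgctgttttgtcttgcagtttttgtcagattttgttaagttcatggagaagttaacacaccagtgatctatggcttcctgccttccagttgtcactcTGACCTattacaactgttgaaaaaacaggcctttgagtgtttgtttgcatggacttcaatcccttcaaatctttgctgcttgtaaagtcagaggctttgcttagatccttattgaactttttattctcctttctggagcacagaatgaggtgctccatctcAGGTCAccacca
Sult1c2 (chr17:53845909-53846208, minus strand): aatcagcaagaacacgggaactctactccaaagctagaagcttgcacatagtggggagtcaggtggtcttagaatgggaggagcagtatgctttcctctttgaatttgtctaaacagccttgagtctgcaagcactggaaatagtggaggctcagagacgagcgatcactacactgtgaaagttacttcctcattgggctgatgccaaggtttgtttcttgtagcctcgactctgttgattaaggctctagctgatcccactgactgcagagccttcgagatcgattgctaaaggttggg
Sult1d1 (chr5:87568957-87569256, minus strand): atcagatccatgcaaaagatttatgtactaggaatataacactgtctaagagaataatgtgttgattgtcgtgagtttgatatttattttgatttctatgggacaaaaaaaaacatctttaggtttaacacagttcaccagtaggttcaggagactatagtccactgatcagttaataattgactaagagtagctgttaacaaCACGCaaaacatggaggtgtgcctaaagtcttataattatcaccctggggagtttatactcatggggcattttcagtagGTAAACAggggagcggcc
Sult5a1 (chr8:123158231-123158530, minus strand): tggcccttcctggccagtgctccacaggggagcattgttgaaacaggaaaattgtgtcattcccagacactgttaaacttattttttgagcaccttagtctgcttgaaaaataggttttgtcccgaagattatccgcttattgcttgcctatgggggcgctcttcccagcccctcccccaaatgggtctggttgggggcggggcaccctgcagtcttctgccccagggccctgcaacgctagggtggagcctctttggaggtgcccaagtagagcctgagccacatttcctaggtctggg
The Sult1b1 window held 2 nuclear receptor half-sites, which begin at bases 128 and 289 of the window. The Sult1d1 window held 1 forkhead match, which begins at base 283, and 1 AHR-ARNT core, which begins at base 204. The windows of Sult1a1, Sult1c2 and Sult5a1 held none of these letters. Of the 8 members with an entry in the table, 2 held a nuclear receptor half-site, against 16.3% of 32851 windows of the same length. The AHR-ARNT core was present in 2 of the 8 and in 32.4% of all windows, the forkhead motif in 1 of the 8 and 3.65%, and the STAT5 motif in 1 of the 8 and 8.30%. The HNF4-selective motif and the E-box were in 0 of the 8, against 0.475% and 7.15% of all windows. No matches in the printed windows overlapped. A match is a description of the letters and not a binding site.

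The deposited values are log2 signals of probe sets. HFD-inulin was set against HFD with limma, a linear model with moderated variances. Of all 65956 probe sets, 0 (0%) had a Benjamini-Hochberg adjusted p under 0.05 in limma, 0 did in ordinary least squares, and 3399 had an unadjusted p under 0.05 (5.15%, with 2.64% lower and 2.52% higher). The arrays did not group by label. Probe sets of chromosome Y that share identical values with another probe set averaged 1.91, 1.60 and 3.15 in the HFD-inulin livers, against 1.34, 3.24 and 2.99 in the HFD livers (log2). HFD-inulin arrays 1 and 2 and HFD array 1 form what is called the low-signal set below, and the other 3 the high-signal set, so a comparison inside a set has 1 group of a single array. The first principal component, with 53.1% of the variance, separated the same arrays, and the origin of this split was not tested. The labelled tissue was borne out by hepatocyte markers, of which 10 of 12 were measured and 0 lay below the median probe set (1.22).

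None of the 10 sulfotransferases passed the adjusted threshold in limma, with adjusted p from 0.902 to 0.997. The differences ran from -0.93 to 0.19 on the log2 scale. Sult5a1 was lower in every HFD-inulin array, and the groups of every other member overlapped. Among these, Sult1a1, Sult1b1, Sult1c2 and Sult1d1 were low in the first 2 HFD-inulin arrays but not in the third. The 9 of 10 with a lower mean stand beside 56.5% of all probe sets. The count was 7 of 10 after each array was centred on its median, against 43.8% of all probe sets, and 7 of 10 after quantile normalization, against 49.1%. The median difference was -0.16 over the members and -0.02 over all probe sets. The groups were apart, with HFD-inulin lower, in 1 of 10 members against 6.02% of all probe sets. Lower with an unadjusted limma p under 0.05 was also 1 of 10, against 2.64%. Both counts are of the same gene, Sult5a1.

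**Figure D1:**
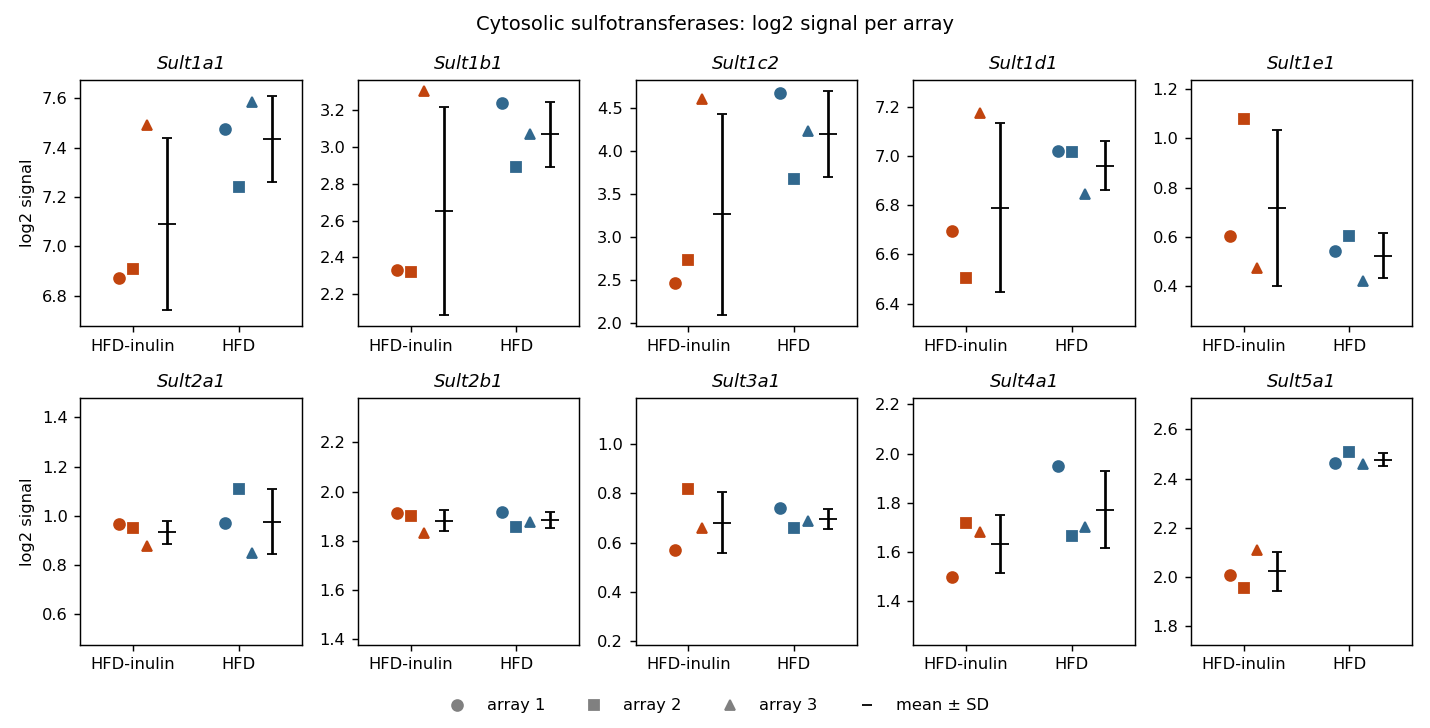
Log2 signal of the 10 cytosolic sulfotransferase genes in the 3 HFD-inulin and the 3 HFD arrays, 1 panel per gene with its own axis; symbols give the array number and bars the mean ± SD. In Sult5a1 all 3 HFD-inulin arrays lie below the HFD arrays, and in Sult1a1, Sult1b1, Sult1c2 and Sult1d1 HFD-inulin array 3 lies among or above them.

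Sult5a1 encodes a member of the family whose physiological substrate is not well established. Its signal was 2.01, 1.95 and 2.11 in the HFD-inulin livers, against 2.46, 2.51 and 2.46 in the HFD livers. The groups did not overlap, and the gap between them was wider than the spread within either. The means were 2.02 ± 0.08 in HFD-inulin livers and 2.48 ± 0.03 in HFD livers (SD, n = 3 each), a difference of -0.45 (SE 0.07, 95% interval -0.61 to -0.29) or a 0.730-fold signal. The limma p was 0.000330 before and 0.902 after adjustment over all probe sets. Its mean lay at the 71.3rd percentile of probe sets, about 1 log2 unit over the median probe set, where a fold on the deposited scale can understate a change. The difference was -0.48 in the low-signal set and -0.37 in the high-signal set, a direction that the lack of overlap fixes in any part of the arrays. Over 16 alternative settings its adjusted p in limma or ordinary least squares ran from 0.0937, without HFD-inulin array 3, to 0.9999.

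Sult1c2 belongs to a branch of the family that acts on small phenols, and it had the widest range of the members, 2.22 log2 units. It measured 2.46, 2.73 and 4.61 in the HFD-inulin livers, against 4.68, 3.68 and 4.23 in the HFD livers. HFD-inulin arrays 1 and 2 lay below every HFD array and HFD-inulin array 3 lay within the HFD range, so the groups overlapped. The difference of the means was -0.93 (SE 0.57, 95% interval -2.30 to 0.44, limma adjusted p = 0.902, n = 3 each). It was -2.08 in the low-signal set and 0.65 in the high-signal set, and -1.60 without HFD-inulin array 3 (limma adjusted p = 0.139, with 0.139 to 0.9999 over the alternatives).

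Sult1b1, whose enzyme sulfonates thyroid hormones, was low in the same arrays. Its signal was 2.33, 2.32 and 3.31 in the HFD-inulin livers, against 3.24, 2.89 and 3.07 in the HFD livers. HFD-inulin array 3 was the highest of the 6 and HFD-inulin arrays 1 and 2 the lowest. The difference was -0.42 (SE 0.27, 95% interval -1.07 to 0.23, limma adjusted p = 0.902), with -0.92 in the low-signal set and 0.32 in the high-signal set, and -0.74 without HFD-inulin array 3.

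Sult1a1 encodes the main phenol sulfotransferase of liver, and its probe set stood at the 97.5th percentile of all probe sets by mean signal. It measured 6.87, 6.91 and 7.49 in the HFD-inulin livers, against 7.48, 7.24 and 7.58 in the HFD livers. HFD-inulin array 3 again lay within the HFD range. The means were 7.09 ± 0.35 in HFD-inulin livers and 7.43 ± 0.18 in HFD livers (SD, n = 3 each), a difference of -0.34 (SE 0.18, 95% interval -0.78 to 0.10, limma adjusted p = 0.902). It was -0.59 in the low-signal set and 0.079 in the high-signal set.

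Sult1d1, which in mice encodes an enzyme acting on catecholamines and other phenols, measured 6.69, 6.50 and 7.17 in the HFD-inulin livers. In the HFD livers it measured 7.02, 7.02 and 6.85. HFD-inulin array 3 was the highest of all 6 arrays and HFD-inulin arrays 1 and 2 the lowest, as in Sult1b1. The difference of -0.17 (SE 0.17, 95% interval -0.58 to 0.24, limma adjusted p = 0.927) was smaller than the SD of 0.34 among the HFD-inulin arrays. It was -0.42 in the low-signal set and 0.24 in the high-signal set.

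**Figure D2:**
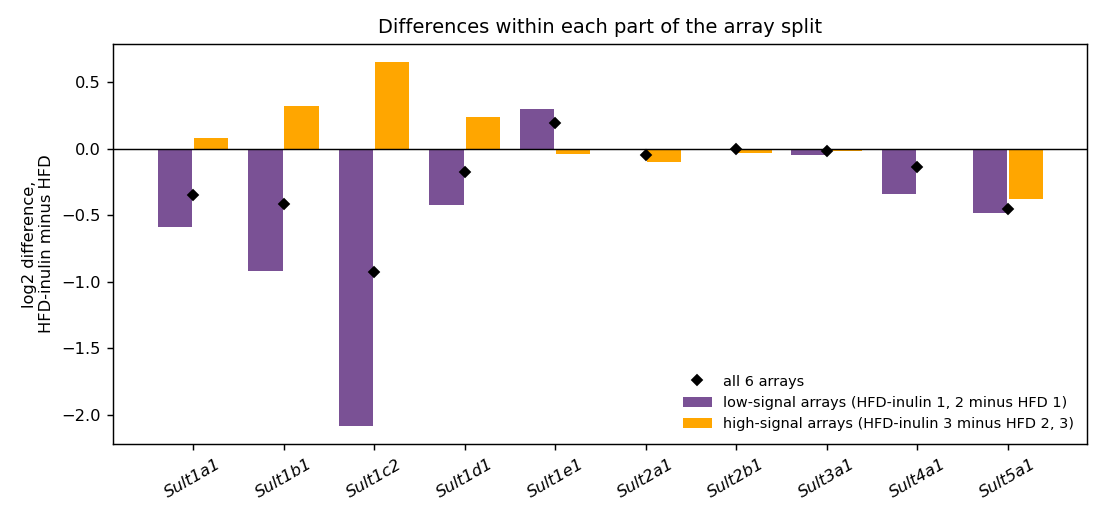
Log2 difference, HFD-inulin minus HFD, of each member in the low-signal set and in the high-signal set, with the value over all 6 arrays as a diamond. Sult5a1 is lower in both, at -0.48 and -0.37, while Sult1c2 is at -2.08 and 0.65.

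In these 4 genes HFD array 1 did not share the low values of HFD-inulin arrays 1 and 2, although it is in the low-signal set. The acute phase gene Saa2, named after its values were seen and nearly identical to Saa1, measured 10.4, 11.3 and 6.25 in the HFD-inulin livers and 6.60, 6.74 and 5.69 in the HFD livers, so it was high in the same 2 arrays. The summed linear signal of the 10 measured hepatocyte markers mixed genes of unlike pattern, so it cannot show whether hepatocyte genes followed those 2 arrays. Alb was lowest in them, at 11.48, 11.37 and 11.55 in the HFD-inulin livers against 11.58, 11.55 and 11.57 in the HFD livers. Fgb was highest in HFD-inulin array 2, at 10.47, 11.28 and 10.41 against 10.48, 10.73 and 10.45. The sum ran from 14074 to 15147 in HFD-inulin arrays and from 15290 to 16351 in HFD arrays, with the 3 arrays of each group apart. Of the 10 markers, 8 had a lower mean in HFD-inulin, against 56.5% of all probe sets. In 4 of the 10 (Apob, Cps1, Hnf4a and Trf) HFD-inulin was lower without overlap, against 6.02%, and the groups of the others overlapped. Lower with an unadjusted limma p under 0.05 were 3 of the 10, against 2.64%. The part of Saa2 or of the hepatocyte markers in the sulfotransferase values was not tested. In whole liver, fewer cells of a type and less RNA per cell cannot be told apart.

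The genes most like the 3 members with the widest range were taken by Pearson r over the 6 arrays, among 504 or 505 protein-coding genes with a mean of at least 3 and a range of at least 1 on the log2 scale. For Sult1c2 they were Upp2 (uridine phosphorylase 2, r = 0.973), Bmp10 (a growth factor gene, 0.972) and Usp18 (an interferon-induced protease gene, 0.962). For Sult1b1 they were Sult1c2 (0.991), Upp2 (0.988) and Olfml1 (0.973). For Sult1a1 they were the cytochrome genes Cyp3a16 (0.991), Cyp3a11 (0.981) and Cyp3a44 (0.978), whose probe sets may share sequence. Other candidates came close, and 20 of 504 exceeded an r of 0.9 with Sult1c2, 37 of 505 with Sult1b1 and 29 of 505 with Sult1a1. These values carry no test.

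Sult1e1, the oestrogen sulfotransferase gene, lay beside Sult1d1 on chromosome 5 and was the only member with a higher mean in HFD-inulin as deposited, while Sult2b1 (0.030) and Sult3a1 (0.018) joined it after median centring. It measured 0.60, 1.08 and 0.47 in the HFD-inulin livers, against 0.54, 0.60 and 0.42 in the HFD livers. HFD-inulin array 2 alone stood apart, and the probe set was at percentile 16.1. The difference of 0.19 (SE 0.16, 95% interval -0.19 to 0.57, limma adjusted p = 0.917) was 0.014 without that array. Sult1b1, Sult1d1 and Sult1e1 follow one another among the coding genes of chromosome 5, with Ugt2a2 before them and the casein gene Csn1s1 after them, and the 3 neighbours did not share 1 pattern.

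Sult2a1, whose enzyme sulfonates steroids and bile acids, and Sult3a1, an amine sulfotransferase gene, lay below the median probe set in these male livers. Sult2a1 ranged from 0.88 to 0.97 in HFD-inulin arrays and from 0.85 to 1.11 in HFD arrays, with a difference of -0.04 (95% interval -0.24 to 0.16). Sult3a1 ranged from 0.57 to 0.82 in HFD-inulin arrays and from 0.66 to 0.74 in HFD arrays, with a difference of -0.01 (95% interval -0.21 to 0.18). With Sult1e1 these are the 3 members below the median probe set, where a change in transcript level may not be measurable. No detection call came with the values.

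Sult2b1, whose enzyme sulfonates cholesterol and pregnenolone, had the narrowest range of the members. It lay between 1.83 and 1.91 in HFD-inulin arrays and between 1.86 and 1.92 in HFD arrays, a difference of -0.0023 (SE 0.06, 95% interval -0.15 to 0.14, limma adjusted p = 0.997). Sult4a1, best known from brain and without an established substrate, measured 1.50, 1.72 and 1.68 in the HFD-inulin livers and 1.95, 1.67 and 1.70 in the HFD livers. Its groups overlapped, and the difference of -0.14 (95% interval -0.39 to 0.11, limma adjusted p = 0.909) was -0.05 without HFD array 1.

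**Figure D3:**
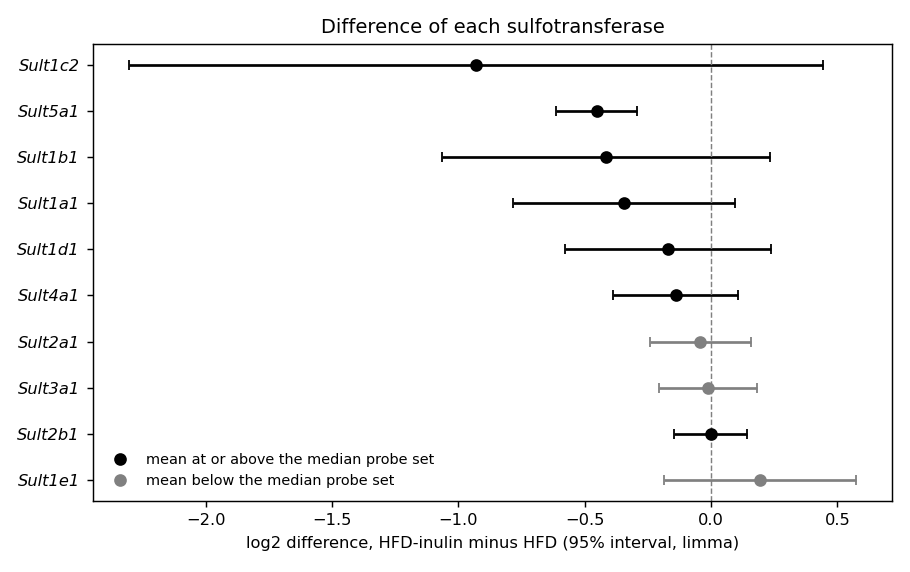
Log2 difference, HFD-inulin minus HFD, of each member with its 95% interval from limma (3 arrays per group); grey marks members whose mean lies below the median probe set. The interval of Sult5a1 alone, from -0.61 to -0.29, excludes 0 before adjustment.

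Of 11 further cytosolic sulfotransferase genes on the array, 0 passed in limma, 0 had an unadjusted p under 0.05, and 8 lay below the median probe set. Sult2a8 is a SULT2 gene of mouse liver whose enzyme acts on bile acids. It measured 8.00, 7.12 and 8.33 in the HFD-inulin livers, against 8.11, 8.22 and 8.24 in the HFD livers, a difference of -0.37 (SE 0.29, limma adjusted p = 0.911). HFD-inulin array 2 was the lowest and HFD-inulin array 3 the highest. The other 10 ranged from 0.41 to 1.67 in all arrays. The smallest p among the 11 were those of Sult2a5 (difference -0.17), Sult2a2 (-0.11) and Sult2a4 (-0.08), near-identical copies whose probes were not checked for sharing. The groups did not overlap in 1 of the 11, Sult2a5, against 6.02% of all probe sets in that direction. Sult2a5 lay below the median probe set, at 1.07, 0.69 and 1.01 in the HFD-inulin livers and 1.10, 1.10 and 1.08 in the HFD livers.

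Genes that supply PAPS showed small differences. Of 11 measured, 0 passed in limma and 0 had an unadjusted p under 0.05, and 7 had a lower and 4 a higher mean, with a median difference of -0.02. Papss2, which encodes a PAPS synthase prominent in liver, measured 6.51, 5.74 and 6.93 in the HFD-inulin livers and 6.71, 6.44 and 6.70 in the HFD livers. Its difference of -0.22 was 0.11 without HFD-inulin array 2. Papss1 differed by -0.06. Slc26a1, a sulfate transporter of the hepatocyte membrane, was the 1 gene of the 11 whose groups did not overlap, against 6.02% of all probe sets in that direction. It measured 5.17, 4.79 and 5.40 in the HFD-inulin livers and 5.42, 5.47 and 5.44 in the HFD livers (difference -0.32, limma adjusted p = 0.902). HFD-inulin array 3 lay just under HFD array 1. Bpnt1, which clears the PAP left after sulfonation, differed by 0.26, and the anion exchanger gene Slc26a6 by 0.07.

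Cysteine breakdown feeds the sulfate pool. Of 10 measured genes of cysteine synthesis and breakdown, 3 had an unadjusted limma p under 0.05, all lower, against 2.64% of all probe sets. None passed the adjusted threshold in limma, and the median difference was -0.17. Got1, the cytosolic aspartate aminotransferase gene, measured 6.12, 6.08 and 7.29 in the HFD-inulin livers and 7.31, 7.70 and 7.39 in the HFD livers. Cbs, the entry enzyme of transsulfuration, measured 6.51, 6.53 and 7.14 in the HFD-inulin livers and 7.19, 7.58 and 7.16 in the HFD livers. Its means were 6.73 ± 0.36 and 7.31 ± 0.23 (SD, n = 3 each). HFD-inulin array 3 lay just under the lowest HFD array in Got1 and in Cbs. In both genes the groups did not overlap, as in 6.02% of all probe sets in that direction. Cdo1, the cysteine dioxygenase gene, differed by -0.26. Their adjusted p in limma was 0.902 each.

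Sulfatases and their activators had 9 of 11 genes measured, 5 with a lower and 4 with a higher mean, and a median difference of -0.03. In 2 of the 9, the arylsulfatase genes Arsa (-0.27) and Arsb (-0.27), HFD-inulin was lower without overlap, against 6.02% of all probe sets. Lower with an unadjusted limma p under 0.05 was 1 of the 9, against 2.64%. Sumf2, listed among the activators, differed by 0.17. Golgi sulfotransferases, which act on proteins and glycans, had 8 of 17 with a lower mean and a median of 0.0021. Chst15, a chondroitin sulfotransferase gene, was the 1 of the 17 lower without overlap (-0.28), against the same 6.02%. Chst1 differed by -0.12 and Chst13 by 0.19. Glucuronidation genes, which serve the other main conjugation route of liver, had 8 of 13 with a lower mean, a median of -0.12 and 0 with an unadjusted p under 0.05. Ugt2b1 was the 1 of the 13 lower without overlap, against the same 6.02%. Ugp2 (-0.66), Ugt2b1 (-0.67) and Ugt2a3 (-0.89) had the smallest p of that list, and Ugt2a3 measured 7.52, 6.27 and 8.53 in the HFD-inulin livers and 8.30, 8.55 and 8.15 in the HFD livers. None of these 3 lists had a member past the adjusted threshold in limma.

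**Figure D4:**
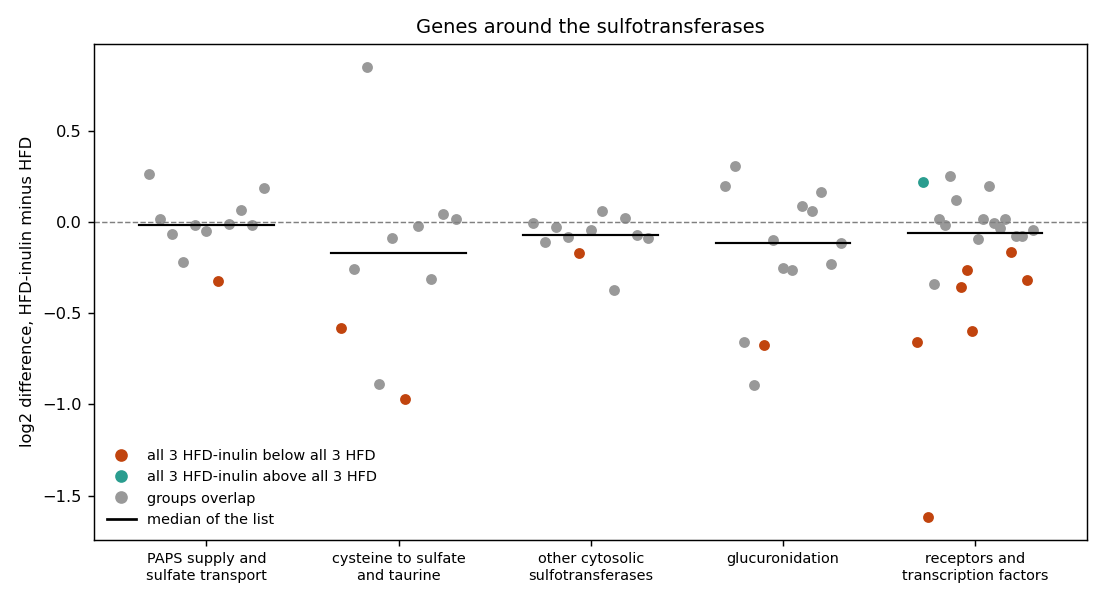
Log2 difference, HFD-inulin minus HFD, of the genes of 5 lists around the sulfotransferases, 1 point per gene, with the median of each list as a line. Colour marks genes whose 3 HFD-inulin arrays all lie below or all above the 3 HFD arrays, most of them among the receptors and transcription factors. The lists were chosen with earlier results of these data known.

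Of the receptors and transcription factors tied to sulfotransferase genes, 7 of 22 were lower and 1 of 22 higher with no overlap between the groups, against 6.02% lower and 4.32% higher of all probe sets (10.3% together). The 7 with an unadjusted p under 0.05 were 6 lower and 1 higher, against 2.64% and 2.52% of all probe sets. The median difference was -0.06, and 0 passed in limma. This list, like the others, was chosen with earlier results of these data known, so the counts beside these shares describe it and are no test. Hnf4a, a nuclear receptor of hepatocyte identity, had the smallest p (difference -0.60, limma adjusted p = 0.390), before Bcl6 (-1.62) and Stat5b (-0.32), a repressor and an activator of sex-biased liver genes. Among partners fixed for naming, Foxo1 differed by -0.36 and Ahr by -0.66, and Arnt, which pairs with AHR, by 0.22. Cux2, also fixed for naming, differed by 0.017, and its groups overlapped. The xenobiotic receptors CAR and PXR are known inducers of sulfotransferase genes. Nr1i3, which encodes CAR, was at 7.66 ± 0.26 in HFD-inulin livers and 7.69 ± 0.05 in HFD livers, and Nr1i2, which encodes PXR, at 5.97 ± 0.20 and 5.98 ± 0.07 (SD, n = 3 each). These 2 differed by less than the spread between arrays.

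Since Sult2a1 and Sult3a1 are female-biased, genes of known sex bias were read beside them. Of 13 measured female-biased genes 9 had a lower mean (median -0.19), with 2 lower and 1 higher at an unadjusted p under 0.05 (2.64% and 2.52% of all probe sets), namely Tox (-0.33), Cyp3a44 (-0.93) and Acot3 (0.89). Of 14 male-biased genes 7 had a lower mean (median -0.08), with 3 lower at that level (against the same 2.64%), namely Bcl6, Cyp2u1 (-0.75) and Elovl3 (-0.91). Steroid and thyroid hormone genes had 9 of 16 with a lower mean (median -0.05) and 0 at an unadjusted p under 0.05, the smallest p being those of Cyp7b1 (0.97), Hsd17b4 (0.36) and Ttr (-0.18). None passed in limma in any of these lists.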

How the data were processed

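Each of 6 arrays held liver RNA of 1 mouse. The log2 signals deposited by the authors were used unchanged. Per the submitters' processing notes, Affymetrix Expression Console 1.0 produced them. How probes were summarised and background-corrected, and on which build, is not stated. The range of the values gave the log base.

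Names came from the platform annotation, updated by RefSeq (GRCm38.p6): 31258 carried 1 gene, 1492 several and 33206 none listed. Per gene the probe set with the highest mean over the 6 arrays was kept; each member had 1. Groups were compared with limma 3.58.1 (R 4.3.3, lmFit and eBayes, two-sided, no filter or covariate), with Benjamini-Hochberg adjustment over 65956 probe sets and a threshold of 0.05. The fit was tested on simulated data first. Intervals are 95% and unadjusted. The number of arrays limits precision, and scan batches were not tested.

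The members, lists and rule for named genes were chosen with earlier results of these data known. The rule names all members, up to 3 genes per list with the smallest unadjusted p, fixed partners and the likeness genes. Lists covered PAPS supply, cysteine synthesis and breakdown, sulfatases and their activators, other cytosolic and Golgi sulfotransferases, glucuronidation, regulators, hormone handling, sex-biased genes and cell type markers. Of the latter, summed linear signals in HFD-inulin and HFD were 421 to 479 and 455 to 485 for 11 Kupffer cell markers, 23.6 to 30.7 and 23.5 to 25.0 for 9 neutrophil, 18.9 to 20.5 and 19.8 to 21.6 for 8 lymphocyte, 248 to 255 and 252 to 274 for 8 endothelial, 159 to 178 and 157 to 173 for 8 stellate, 20.4 to 27.5 and 19.6 to 22.1 for 5 bile duct, 122 to 1244 and 1003 to 1454 for 6 adipose (mostly Car3, which hepatocytes express too), 223 to 328 and 208 to 305 for 5 intestinal and 15.7 to 17.6 and 16.3 to 17.5 for 4 pancreatic markers. Alternatives were quantile normalization, a trended and robust prior, removal of dim probe sets, array weights, centring on the median, replicate number and array split as blocks, each part of the split, each array left out, and ordinary least squares.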

Additional observations from a re-analysis of the deposited data

How the results depend on the processing

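Over 16 alternatives 0 members passed the adjusted threshold, Sult4a1 kept its sign in each, as did Sult5a1, whose lack of overlap fixes its sign wherever arrays are only left out, and a trended, robust prior in limma called 4 probe sets, none of them a member. With the replicate number as a block 2 of 10 members had an unadjusted limma p under 0.05, where 5.08% of all probe sets had such a p. Without the block 1 of 10 did, where the share was 5.15%. The median difference with the block was again -0.16. Same-numbered arrays deviated together with r of 0.26, -0.28 and 0.40 for numbers 1 to 3, and nothing in the labels pairs them. That count was 5 for the low-signal set, where 5.64% of all probe sets had such a p, and 3 for the high-signal one, with 6.58%; in both, 1 group is a single array assumed to vary like the others. The count ran from 1 to 5 with each array left out, the 5 being without HFD-inulin array 3, where the share over all probe sets was 9.89%. The median difference was -0.34 with dim probe sets removed (7 members left), -0.19 after quantile normalization, -0.12 after median centring, -0.13 with the split as a block, -0.38 in the low-signal set, -0.0088 in the high-signal set, and from -0.26 to -0.10 with each array left out. The mean over several probe sets was not run, since each member has 1.

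In the high-signal set the sign turned for Sult1a1 (0.079), Sult1b1 (0.32), Sult1c2 (0.65), Sult1d1 (0.24), Sult1e1 (-0.042), Sult2a8 (0.10), Papss2 (0.36), Bpnt1 (-0.011), Chst13 (-0.14), Ugp2 (0.11), Ugt2a3 (0.18), Cyp2u1 (0.015), Cyp3a44 (0.011), Cyp7b1 (-0.080), Hsd17b4 (-0.029) and Nr1i3 (0.24). Differences near 0 turned elsewhere: Sult2b1 after quantile normalization (0.030), median centring (0.030) and array weights (0.011), and from -0.018 to 0.023 with an array left out; Sult3a1 after quantile normalization (0.0041) and median centring (0.018), and from -0.081 to 0.043; Sult2a1 from -0.11 to 0.024; Nr1i2 after median centring (0.027), array weights (0.038) and in the low-signal set (0.069), and from -0.11 to 0.084; Nr1i3 with the split as a block (0.034), and from -0.17 to 0.093; and Papss2 from -0.49 to 0.11. The cause was not tested. Signals below the median probe set limit what can be seen for Sult1e1, Sult2a1 and Sult3a1.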
